A study of Saccharomyces cerevisiae with 8 samples.

Results

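The genes described here encode the cytosolic Hsp70 and Hsp90 chaperones of budding yeast and the Hsp110 relatives of Hsp70, 10 of the 6002 nuclear protein-coding open reading frames (ORFs) of the R64 annotation. They were taken by symbol, and 6 were counted as constitutive (SSA1, SSA2, SSB1, SSB2, SSE1 and HSC82) and 4 as heat-induced (SSA3, SSA4, SSE2 and HSP82). They were picked with results of these libraries known, so every value below is a description and none was tested. The data are RNA polymerase II (RNAPII) chromatin immunoprecipitation (ChIP-seq) peak lists made with the 8WG16 antibody, which binds the largest RNAPII subunit. Cells were strain W303a in mid-log growth in SC medium at 30 °C, with no heat shock. The mutant strain, Tfg1-K60,61R-HA, carries arginine in place of a pair of neighbouring lysines of Tfg1, the largest protein of the initiation factor TFIIF, its main sites of SUMO attachment. The change lowers SUMO on Tfg1 without removing it. The strain it is set against, Tfg1-HA, carries the normal protein, and in both Tfg1 bears an HA tag and is expressed from its own locus. The Tfg1-K60,61R-HA strain also has an unintended missense change elsewhere in Tfg1, so the lysine changes and that change cannot be told apart. Each strain gave 2 RNAPII lists from independent cultures.

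Hsp70 proteins bind exposed hydrophobic stretches of unfolded proteins in a cycle of ATP hydrolysis that J-domain proteins start and nucleotide exchange factors end. Hsp90 acts later, on near-native clients such as kinases and receptors, with a set of co-chaperones that pass clients on and time its ATPase. In yeast, the heat shock factor Hsf1 keeps several of these genes active without stress and raises them further on heating, through repeats of the letters NGAAN in alternating orientation. RNAPII ChIP signal over an ORF reflects polymerase engaged in transcribing it, so a peak list shows which of these genes carried polymerase above the caller's limit in unstressed cells.

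The letters before 5 of the genes are shown because all 5 hold letters of the Hsf1 repeat, and because the peaks start on different sides of them. Each run covers bases 300 to 121 before the ORF, read 5′ to 3′ along transcription, with capitals for TTCNNGAA, GAANNTTC and their longer overlap TTCNNGAANNTTC. In the sacCer3 build they are SSA1 at chrI:141552-141731 on the minus strand, SSA2 at chrXII:97606-97785 on the minus strand, SSA4 at chrV:364289-364468 on the plus strand, HSC82 at chrXIII:632055-632234 on the plus strand and HSP82 at chrXVI:98746-98925 on the minus strand.
SSA1: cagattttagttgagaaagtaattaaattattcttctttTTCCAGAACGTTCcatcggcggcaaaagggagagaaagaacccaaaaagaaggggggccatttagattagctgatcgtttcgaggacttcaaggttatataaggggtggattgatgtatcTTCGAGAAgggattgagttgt
SSA2: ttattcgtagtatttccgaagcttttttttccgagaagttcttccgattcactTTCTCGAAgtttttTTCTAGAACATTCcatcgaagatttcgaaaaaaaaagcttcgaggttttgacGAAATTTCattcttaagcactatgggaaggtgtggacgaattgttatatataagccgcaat
SSA4: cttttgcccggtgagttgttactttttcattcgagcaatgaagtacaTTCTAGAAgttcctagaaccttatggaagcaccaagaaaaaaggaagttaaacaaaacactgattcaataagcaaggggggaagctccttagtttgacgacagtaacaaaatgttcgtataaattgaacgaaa
HSC82: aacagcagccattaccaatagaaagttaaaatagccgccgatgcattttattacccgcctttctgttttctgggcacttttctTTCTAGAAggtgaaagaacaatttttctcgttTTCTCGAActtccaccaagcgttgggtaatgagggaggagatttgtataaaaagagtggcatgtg
HSP82: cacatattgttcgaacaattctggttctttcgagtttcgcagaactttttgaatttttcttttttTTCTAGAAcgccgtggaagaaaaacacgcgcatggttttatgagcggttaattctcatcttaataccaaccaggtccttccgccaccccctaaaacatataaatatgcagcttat

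Over the whole 300 bases before each ORF, TTCNNGAA, which reads the same on either strand, was found before 8 of the 10 genes. It was found in 13.1% of 6001 such windows. The other phase, GAANNTTC, was found before 3 of the 10 genes, against 11.5% of windows, and always in a window that also held TTCNNGAA. The longer TTCNNGAANNTTC was present before SSA1, SSA2 and SSE1, against 0.567% of windows, and GAANNTTCNNGAA before none of the 10, against 0.45%. SSB1 and SSA3 had neither short form in these bases. The stress element AGGGG, the site of the general stress factors Msn2 and Msn4, was searched on both strands. It lay before SSA1, SSA4, SSE2 and HSP82, against 22.2% of windows. A match of letters is not a bound site, and the absence of a match says nothing about binding.

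Some stretches are shown because 3 of the pairs are nearly the same gene, which bears on every value for SSA1, SSA2, SSB1 and SSB2. SSA1 and SSA2 were identical at 96.4% of aligned ORF positions, SSB1 and SSB2 at 97.4%, and HSC82 and HSP82 at 91.7%. The longest unbroken identical run was 383 bases for the SSA1 pair, 563 bases for the SSB1 pair and 113 bases for the HSC82 pair. The first 200 bases of the SSA1 run (chrI:140830-141029, minus strand) and of the SSB1 run (chrIV:44530-44729, plus strand), and the whole HSC82 run (chrXIII:634095-634207, plus strand), read as follows.
SSA1 and SSA2: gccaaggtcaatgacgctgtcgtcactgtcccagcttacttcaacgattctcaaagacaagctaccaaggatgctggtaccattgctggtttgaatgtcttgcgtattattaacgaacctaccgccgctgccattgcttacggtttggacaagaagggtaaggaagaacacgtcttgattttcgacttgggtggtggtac
SSB1 and SSB2: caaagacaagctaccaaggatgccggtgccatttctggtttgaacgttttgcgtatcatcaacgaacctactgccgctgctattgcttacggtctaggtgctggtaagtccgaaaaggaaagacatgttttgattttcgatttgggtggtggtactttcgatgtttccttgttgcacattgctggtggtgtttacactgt
HSC82 and HSP82: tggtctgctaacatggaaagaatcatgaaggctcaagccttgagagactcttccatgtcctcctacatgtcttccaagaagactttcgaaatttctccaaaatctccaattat

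Of all stretches of 120 bases in SSA1, 41.6% had an exact copy elsewhere in the genome, and the share was 41.8% in SSA2 and 28.7% in each of SSB1 and SSB2. The other 6 genes had none at this length. Over all ORFs, 341 of 5964 (5.72%) held such a copy. With 50 bases, HSC82 reached 6.43% and HSP82 6.39%, while SSA1 reached 57.9%. Reads lying wholly within copied stretches cannot be placed on 1 locus, so the values of SSA1 and SSA2, and of SSB1 and SSB2, are uncertain as values of single genes. The heat-induced SSA3 and SSA4 were only 76.6% identical to each other and 74.1% to SSA1, and SSE1 and SSE2 only 72.0%, so those genes are separable.

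**Figure D1:**
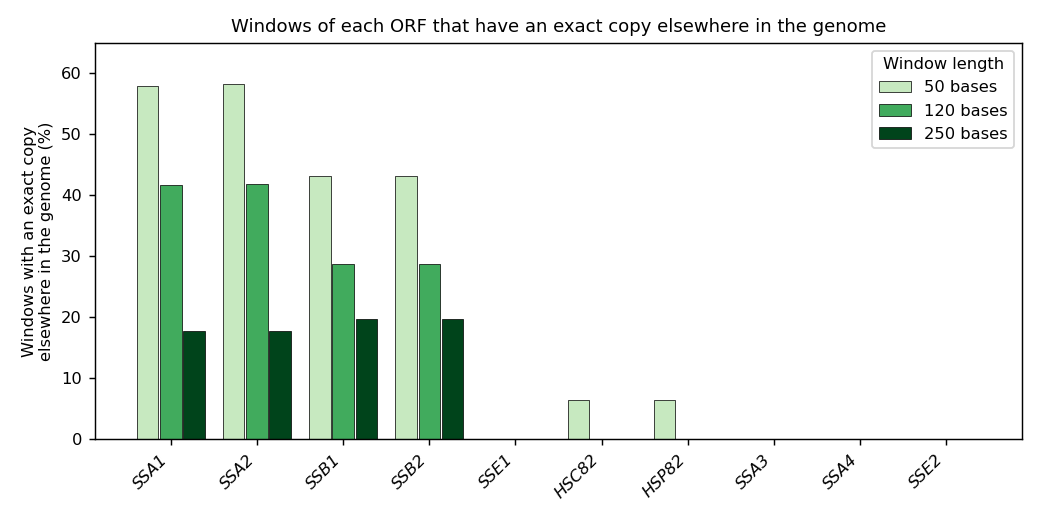
Bars give, for each gene (x axis), the percent of windows of 50, 120 or 250 bases in the ORF with an exact copy elsewhere in the genome (y axis, %). SSA1, SSA2, SSB1 and SSB2 hold copies at every length, HSC82 and HSP82 only at 50 bases, and SSA3, SSA4, SSE1 and SSE2 at none.

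There were 1098 and 894 peaks in Tfg1-K60,61R-HA and 1257 and 1171 in Tfg1-HA. An ORF is termed occupied here if peaks covered 50% or more of it. The lists give no read counts, so depth is unknown. Strain differences after limiting each list to 894 peaks stand in the closing section. The names inside the lists use upper case in the replicate 1 list of each strain, and lower case, the usual form for a mutant allele, in the remaining pair. The lists themselves are named TFG1 in the upper-case pair and tfg1m, with an added m, in the lower-case pair. These names go against the labels. If they mark the genotype, the list labelled Tfg1-K60,61R-HA replicate 1 belongs to Tfg1-HA, and that labelled Tfg1-HA replicate 2 to the mutant. Every strain direction below could then be wrong. Which is right was not tested, so each direction is one between lists as labelled. With the lists grouped by case, the closing section gives the differences between strains in occupied genes, mean coverage, percentile and mean 5′ edge. Of the markers of MATa cells, MFA2 and STE2 were fully covered in all 4 lists, MFA1 was covered over 14.4% to 100% of its length and BAR1 over 0% to 100%. The alpha-cell genes MF(ALPHA)1, MF(ALPHA)2 and STE3 met no peak in any list.

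Without heat stress, RNAPII peaks covered 5 of the 6 constitutive genes and, of the 4 heat-induced ones, only HSP82. SSA1, SSA2, SSB1, SSB2 and HSC82 lay under peaks over their whole length in all 4 lists. At the lower limit of 50%, 10.8% of all ORFs were occupied in all 4 lists. The share of ORFs covered over their whole length is not given. SSA3, SSA4 and SSE2 met no peak in any list, like 60.2% of ORFs. HSP82 was occupied in 3 lists and SSE1 in none, although a peak touched SSE1 in every list. Thus 6 and 6 of the 10 genes were occupied in Tfg1-K60,61R-HA, where 16.9% and 12.7% of ORFs were, and 6 and 5 in Tfg1-HA, where 19.9% and 17.3% were. No gene lay near the 50% limit, with 30.9% for SSE1 the nearest value below it and 100% the nearest above.

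**Figure D2:**
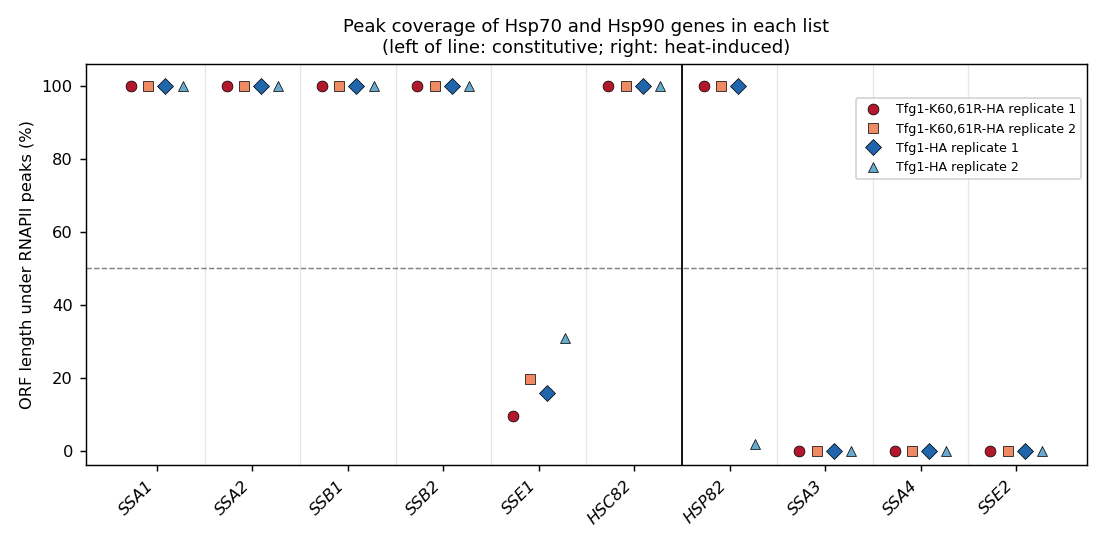
Points give the percent of ORF length under peaks (y axis) for each gene (x axis) in each list, with the 2 Tfg1-K60,61R-HA lists left of the 2 Tfg1-HA lists and the dashed line at 50%. The constitutive genes other than SSE1 sit at 100% in every list, SSE1 sits between 9.56% and 30.9%, HSP82 drops to 1.88% in Tfg1-HA replicate 2, and SSA3, SSA4 and SSE2 stay at 0%.

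Mean coverage of the 10 genes was 61.0% and 62.0% in Tfg1-K60,61R-HA, against 61.6% and 53.3% in Tfg1-HA. The difference of 4.03 percentage points was smaller than the SD of 5.87 between the Tfg1-HA lists and came from HSP82, since without Tfg1-HA replicate 2 it was -0.122. Between the classes the gap was wide in every list. Heat-induced minus constitutive coverage was -59.9 and -61.6 percentage points in Tfg1-K60,61R-HA, and -61.0 and -88.0 in Tfg1-HA. SSA1, counted as constitutive, is itself raised by heat, and counting it as heat-induced narrowed the mean gap of -67.6 to -48.7 points. In percentile of fold, explained next, the same gap rests on HSP82 alone for the heat-induced genes and was 2.63 and -9.73 points in Tfg1-K60,61R-HA, and -26.1 and -25.3 in Tfg1-HA, so its sign was not the same in every list. The value of Tfg1-HA replicate 2 comes from a peak that covered only 1.88% of HSP82.

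Strength was read from the authors' fold, the enrichment of immunoprecipitate over input background averaged over a peak. For each ORF this was weighted by overlap and turned into a percentile among the ORFs touched by any peak in the same list, because the lists differ in length. The percentile does not remove that difference. Touched ORFs numbered 1829 and 1384 in Tfg1-K60,61R-HA, against 2109 and 1868 in Tfg1-HA. ORFs touched in all 4 lists can thus rank lower in a list that touches fewer ORFs. All 7 touched genes had groups of lists that did not overlap on this scale. SSA1, SSA2, HSC82 and HSP82 ranked higher in both Tfg1-K60,61R-HA lists, as did 9.65% of the 1202 ORFs touched in all 4 lists. SSB1, SSB2 and SSE1 ranked lower in both, as did 43.9% of those ORFs. The median difference, Tfg1-K60,61R-HA minus Tfg1-HA, was 7.13 percentile points over the 7 genes and -4.21 over the 1202 ORFs. Their mean percentile was 61.7 ± 3.41 in Tfg1-K60,61R-HA and 59.4 ± 1.93 in Tfg1-HA (SD, n = 2 each), a difference of 2.28 that is smaller than the larger SD and was -0.126 without Tfg1-K60,61R-HA replicate 1. Ranked among the 1202 ORFs alone, a base chosen after seeing the data, the mean difference was 10.98, with 4 genes higher and 2 lower. SSB2 overlapped on that base. With 2 lists against 2 an exact permutation test cannot give a p below 0.333.

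**Figure D3:**
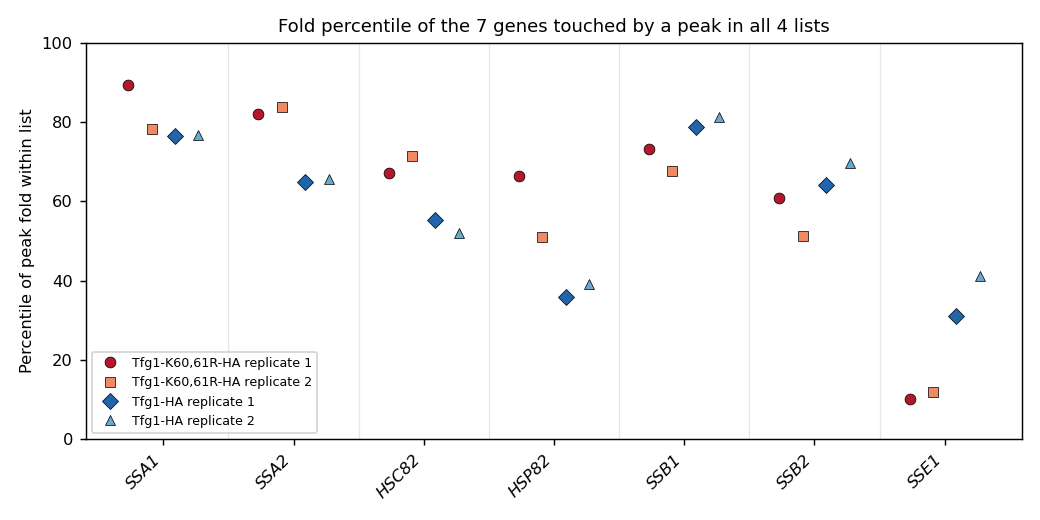
Points give the percentile of the peak fold within its list (y axis, 0 to 100) for the 7 genes touched by a peak in all 4 lists (x axis), with the 2 Tfg1-K60,61R-HA lists left of the 2 Tfg1-HA lists. SSA1, SSA2, HSC82 and HSP82 sit higher in Tfg1-K60,61R-HA and SSB1, SSB2 and SSE1 lower, with the smallest gap for SSA1.

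SSA1 and SSA2 encode the abundant cytosolic Hsp70s that fold new proteins, carry precursors to membranes and hold Hsf1 in check. SSA1 (YAL005C, chromosome I, 139503 to 141431, minus strand, 1 coding exon) had a fold of 3.39 and 2.28 in Tfg1-K60,61R-HA, against 2.65 and 2.64 in Tfg1-HA. The raw folds of the 2 strains overlapped, with the highest and the lowest both in Tfg1-K60,61R-HA. Within its list SSA1 ranked at percentiles 89.4 and 78.2 in Tfg1-K60,61R-HA, against 76.5 and 76.8 in Tfg1-HA, a difference of 7.13 points that was smaller than the SD of 7.89 between the Tfg1-K60,61R-HA lists. The SSA1 peak was 4372 to 4554 bp wide and also covered the whole of EFB1, which encodes an elongation factor subunit and lies upstream on the other strand, so the fold is shared with that gene.

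SSA2 (YLL024C, chromosome XII, 95566 to 97485, minus strand, 1 coding exon) had a fold of 2.79 and 2.70 in Tfg1-K60,61R-HA, against 2.09 and 2.14 in Tfg1-HA. Here the strains did not overlap, and the replicates of each differed little. SSA2 ranked at percentiles 81.9 and 83.7 in Tfg1-K60,61R-HA, against 64.8 and 65.7 in Tfg1-HA, a difference of 17.5 points with SDs of 1.25 and 0.686. Its peak began 871 and 932 bp before the ORF in Tfg1-K60,61R-HA, and 945 and 773 bp before it in Tfg1-HA, so that it took in the printed upstream bases in every list. It also ran into POM33, a nuclear pore protein gene, over 42.9% and 50.1% of its length in Tfg1-K60,61R-HA and 51.7% and 31.2% in Tfg1-HA. The SSA1 and SSA2 peaks thus both extended across the TTCNNGAANNTTC letters, on the side where they met EFB1 and POM33. The peak at the 5′ end of SSE1, described below, crossed the same letters before that gene.

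SSB1 and SSB2 encode the ribosome-bound Hsp70s that meet nascent chains at the exit of the tunnel. SSB1 (YDL229W, chromosome IV, 44065 to 45906, plus strand, 1 coding exon) had a fold of 2.23 and 1.94 in Tfg1-K60,61R-HA, against 2.75 and 2.96 in Tfg1-HA. Both Tfg1-K60,61R-HA values were lower than both Tfg1-HA values, the reverse of SSA2. It ranked at percentiles 73.2 and 67.7 in Tfg1-K60,61R-HA, against 78.7 and 81.3 in Tfg1-HA, a difference of -9.57 points with SDs of 3.88 and 1.79. SSB2 (YNL209W, chromosome XIV, 252059 to 253900, plus strand, 1 coding exon) had a fold of 1.83 and 1.65 in Tfg1-K60,61R-HA, against 2.08 and 2.32 in Tfg1-HA. SSB2 was thus below SSB1 in each list and shared its direction. Its percentile was 56.1 ± 6.80 in Tfg1-K60,61R-HA and 66.9 ± 3.80 in Tfg1-HA (SD, n = 2 each), a difference of -10.8 points, but among the 1202 ORFs touched in all 4 lists its percentiles were 48.0 and 46.6 in Tfg1-K60,61R-HA against 47.5 and 58.5 in Tfg1-HA, which overlap.

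The peaks on the SSB genes began next to the ORF. Those on SSA1 and SSA2 began farther upstream, where they covered EFB1 or ran into POM33. In SSB1 the peak began 51 and 37 bp before the ORF in Tfg1-K60,61R-HA, and 79 and 99 bp before it in Tfg1-HA. In SSB2 it began 25 and 4 bp before the ORF in Tfg1-K60,61R-HA, and 59 and 88 bp before it in Tfg1-HA. In both genes the Tfg1-K60,61R-HA peaks were the shorter ones on this side, without overlap between the strains as labelled. Grouped by name case the edges overlapped in both genes. In SSB1 they were 51 and 79 bp in upper-case lists against 37 and 99 bp in lower-case lists. In SSB2 they were 25 and 59 bp against 4 and 88 bp. The 5′ edges of SSA1, SSA2 and HSC82 did overlap between the strains. No share of all ORFs with edges that separate the lists in this way is given, so how common the pattern is remains unknown. Both SSB genes also had the lower fold in both Tfg1-K60,61R-HA lists. Whether the edges differ apart from the fold was not tested. Downstream the edges of the SSB peaks depended on joining with neighbours too. The SSB1 peak ended 1957 bp past the ORF in Tfg1-K60,61R-HA replicate 1, where it covered 90.5% of HO, the endonuclease gene of mating type switching, and 375 bp past it in Tfg1-K60,61R-HA replicate 2, against 402 and 499 bp in Tfg1-HA. The SSB2 peak ended 1346 and 293 bp past the ORF in Tfg1-K60,61R-HA, against 1417 and 1471 bp in Tfg1-HA, and it covered the whole of YNL208W in every list but Tfg1-K60,61R-HA replicate 2.

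**Figure D4:**
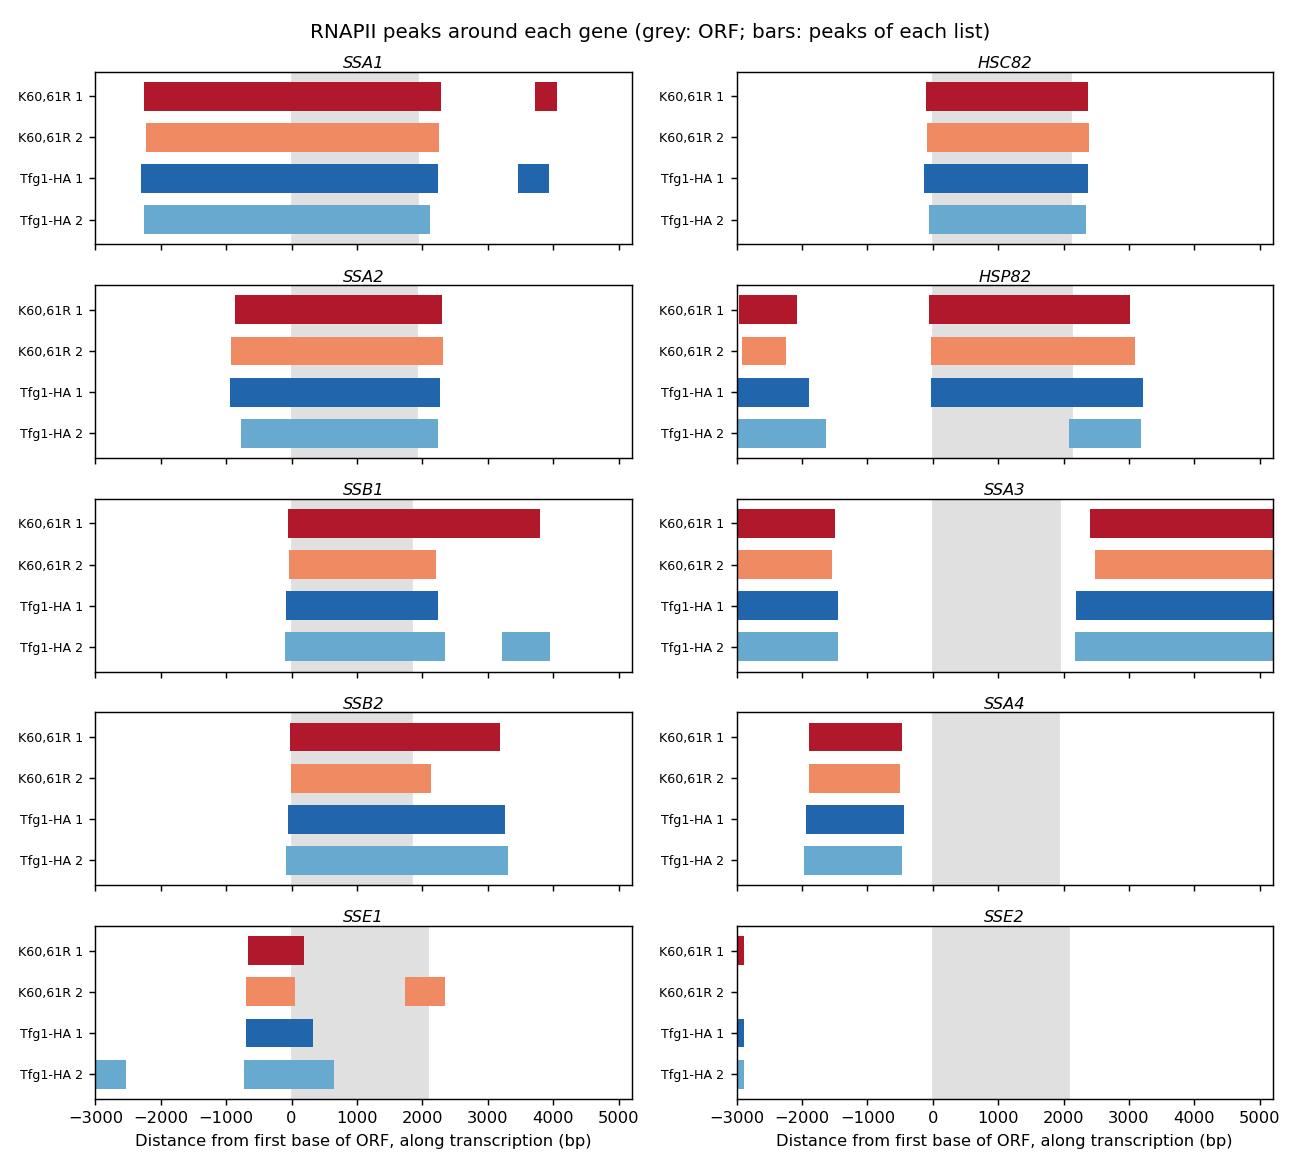
Bars show the peaks of each list (rows, the 2 Tfg1-K60,61R-HA lists above the 2 Tfg1-HA lists) around each gene, against distance from the first base of the ORF along transcription (x axis, bp), with the ORF in grey. Peaks on SSB1, SSB2 and HSC82 start within 128 bp of the ORF, those on SSA1 and SSA2 start far upstream, the HSP82 peak of Tfg1-HA replicate 2 reaches only the 3′ end, and SSA3, SSA4 and SSE2 have no peak on the ORF.

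HSC82 and HSP82 encode the constitutive and the heat-induced Hsp90. HSC82 (YMR186W, chromosome XIII, 632355 to 634472, plus strand, 1 coding exon) had a fold of 1.99 and 2.03 in Tfg1-K60,61R-HA, against 1.78 and 1.70 in Tfg1-HA. The strains did not overlap. The authors' −log10 q-values were 38.2 and 19.9 in Tfg1-K60,61R-HA against 15.5 and 11.9 in Tfg1-HA. Within Tfg1-K60,61R-HA the higher of these went with the lower fold. Depth is unknown, so they add nothing to the difference in fold. The percentile of HSC82 was 69.4 ± 3.09 in Tfg1-K60,61R-HA and 53.7 ± 2.33 in Tfg1-HA (SD, n = 2 each), a difference of 15.6 points. No other gene was covered over 50% of its length by the HSC82 peak, which began 105 and 87 bp before the ORF in Tfg1-K60,61R-HA and 128 and 54 bp before it in Tfg1-HA. The peak therefore began downstream of both capitalised sites printed above, at 217 and 185 bp before the ORF, while the TTCNNGAA at 48 bp lay under it.

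HSP82 (YPL240C, chromosome XVI, 96496 to 98625, minus strand, 1 coding exon) was the one gene whose occupancy differed between lists. It was covered over 100% and 100% of its length in Tfg1-K60,61R-HA, against 100% and 1.88% in Tfg1-HA. The single low list was Tfg1-HA replicate 2, so the strains overlapped. The fold was 1.98 and 1.65 in Tfg1-K60,61R-HA, against 1.48 and 1.49 in Tfg1-HA, and the −log10 q-value was 36.8 and 8.37 against 6.40 and 6.84. In Tfg1-HA replicate 2 that fold belongs to a peak centred past the end of HSP82, on CIN2, a tubulin folding gene that lay under the same peak over 73.2% and 82.5% of its length in Tfg1-K60,61R-HA, and over 96.4% and 93.0% in Tfg1-HA. The percentile of HSP82 was 58.7 ± 10.9 in Tfg1-K60,61R-HA and 37.4 ± 2.39 in Tfg1-HA (SD, n = 2 each), a difference of 21.2 points, and its Tfg1-HA part does not measure the HSP82 ORF alone. Set against HSC82 in the same list, HSP82 was lower by 0.793 and 20.6 percentile points in Tfg1-K60,61R-HA and by 19.6 and 13.0 points in Tfg1-HA. The 13.0 points of Tfg1-HA replicate 2 rest on the CIN2 peak. In the lists where it was occupied, HSP82 was below its constitutive paralog, with both the smallest and the largest gap in Tfg1-K60,61R-HA.

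SSE1 and SSE2 encode Hsp110 proteins, which act as nucleotide exchange factors for Hsp70. SSE1 (YPL106C, chromosome XVI, 350194 to 352275, minus strand, 1 coding exon) was covered over 9.56% and 19.5% of its length in Tfg1-K60,61R-HA, against 15.8% and 30.9% in Tfg1-HA. These values overlapped between strains and all lay at the ends of the ORF. In each list a peak that began 661 and 696 bp before the ORF in Tfg1-K60,61R-HA, and 693 and 724 bp before it in Tfg1-HA, reached into its 5′ end, and in Tfg1-K60,61R-HA replicate 2 a second peak lay on its 3′ end. The fold was low throughout, 1.25 and 1.32 in Tfg1-K60,61R-HA against 1.44 and 1.51 in Tfg1-HA. Its percentile was 10.9 ± 1.29 in Tfg1-K60,61R-HA and 36.1 ± 6.99 in Tfg1-HA (SD, n = 2 each), a difference of -25.2 points for a gene never occupied. In Tfg1-K60,61R-HA replicate 2 the value rests mostly on the 3′ peak, of fold 1.31, and not on the 5′ peak, of fold 1.40. That 5′ peak ranked at percentile 27.7 where it touched the neighbour SYH1. The difference and the SD of 1.29 thus mix different peaks.

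Of the 3 heat-induced genes with no peak, SSA3 and SSA4 had one nearby and SSE2 did not. SSA3 (YBL075C, chromosome II, 84499 to 86448, minus strand) had its nearest peak 454 and 525 bp past its 3′ end in Tfg1-K60,61R-HA, and 236 and 219 bp past it in Tfg1-HA. SSA4 (YER103W, chromosome V, 364589 to 366517, plus strand) had its nearest peak on the 5′ side, 476 and 495 bp away in Tfg1-K60,61R-HA and 443 and 476 bp away in Tfg1-HA. Neither peak reached the gene, and that of SSA4 also stopped short of the TTCTAGAA printed above. SSE2 (YBR169C, chromosome II, 573915 to 575996, minus strand) had its nearest peak at least 2884 bp away in every list. SSA3 and SSA4 encode Hsp70s made mainly under stress. Absence from the lists means that signal did not pass the caller's limit at the unknown depth of these libraries, not that RNAPII was absent.

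Among peaks with a fold of at least 2, only SSB2 separated the strains. SSA1 and SSA2 stayed occupied in all 4 lists. SSB1 stayed so in Tfg1-K60,61R-HA replicate 1 and both Tfg1-HA lists, SSB2 in both Tfg1-HA lists alone, and HSC82 in Tfg1-K60,61R-HA replicate 2 alone. SSB1 in Tfg1-K60,61R-HA replicate 2, at 1.94, and HSC82 in replicate 1, at 1.99, lay just under the limit. At this limit 3 and 3 genes were occupied in Tfg1-K60,61R-HA, against 4 and 4 in Tfg1-HA. Over all ORFs 7.15% and 4.78% were occupied by such peaks in Tfg1-K60,61R-HA, against 9.58% and 8.33% in Tfg1-HA, so the order of the strains was that of all ORFs.

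The wider chaperone system was described with 38 further genes, of which 8 were occupied in all 4 lists, 7 in some and 23 in none, and 15 of those met no peak. Over all ORFs the shares were 10.8% in all 4 lists and 12% in 1 to 3 lists. Of the 12 Hsp90 co-chaperones, HCH1, a relative of the gene for the Hsp90 ATPase activator Aha1, was occupied in all 4 lists, and SBA1, the p23 homolog, in both replicate 1 lists only. Of the 10 Hsp70 co-chaperones, the J-domain genes YDJ1 and SIS1 and the exchange factor gene SNL1 were occupied in all 4. Of the 5 other Hsp70s, KAR2 of the endoplasmic reticulum and SSC1 of mitochondria were occupied in all 4, with KAR2 at percentiles 80.6 and 81.1 in Tfg1-K60,61R-HA and 85.1 and 76.0 in Tfg1-HA. SSC1 was at percentiles 66.6 and 62.0 in Tfg1-K60,61R-HA and 64.0 and 52.0 in Tfg1-HA, so neither gene separated the strains.

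ZUO1, the J-domain partner of the SSB proteins on the ribosome, was the one gene of the wider list occupied in both lists of Tfg1-HA but in none of Tfg1-K60,61R-HA, a pattern of 1.73% of ORFs and of 0 of the 10 chaperone genes. It was covered over 3.61% and 0% of its length in Tfg1-K60,61R-HA, against 88.6% and 88.2% in Tfg1-HA. In Tfg1-HA replicate 1 the peak was 5757 bp wide and shared with BGL2, UPA1 and ERV29, and in replicate 2 it was 1352 bp wide and not shared. No gene of either list showed the opposite pattern, which 0.15% of ORFs did. YDJ1 ranked lower in both lists of Tfg1-K60,61R-HA, but only in Tfg1-K60,61R-HA replicate 1, at percentile 33.4, did it have a peak apart from that of the ribosomal protein gene RPL9B. MSN4, a stress transcription factor gene and the only one of 3 heat shock regulators occupied in all 4 lists, lay under the peak of the glycolytic gene FBA1. Of the 10 wider genes touched in all 4 lists, 1 ranked higher in both Tfg1-K60,61R-HA lists, 3 lower and 6 in neither way.

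Other heat shock genes shared the pattern of HSP82. HSP104, the disaggregase gene, was covered over 100% and 100% of its length in Tfg1-K60,61R-HA, against 100% and 9.24% in Tfg1-HA. HSP26, a small heat shock protein gene, was covered over 100% and 100% in Tfg1-K60,61R-HA, against 100% and 0% in Tfg1-HA. HSP60, the mitochondrial chaperonin gene, was covered over 99.5% and 94.4% in Tfg1-K60,61R-HA, against 99.9% and 37.3% in Tfg1-HA. Where occupied, HSP60 lay under peaks of 13235 and 7755 bp in Tfg1-K60,61R-HA and 10724 bp in Tfg1-HA, shared with YLR257W and GSY2. HSP26 lay under peaks shared with YBR071W, so the coverage of both depends on joining with neighbours. HSP82, HSP104, HSP26 and HSP60 made 4 of 48 genes that lost occupancy in Tfg1-HA replicate 2 alone, against 0.716% of all ORFs. None of the 10 chaperone genes lost occupancy in Tfg1-K60,61R-HA replicate 1, Tfg1-K60,61R-HA replicate 2 or Tfg1-HA replicate 1 alone, which 0.467%, 2.9% and 0.0167% of ORFs did. In each the low value belonged to 1 list and not to the strain. HSP42 and HSP78 were covered in Tfg1-K60,61R-HA replicate 1 only, over 100% and 96.6% of their lengths, and HSP10, the partner of HSP60, was occupied in all 4 lists.

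**Figure D5:**
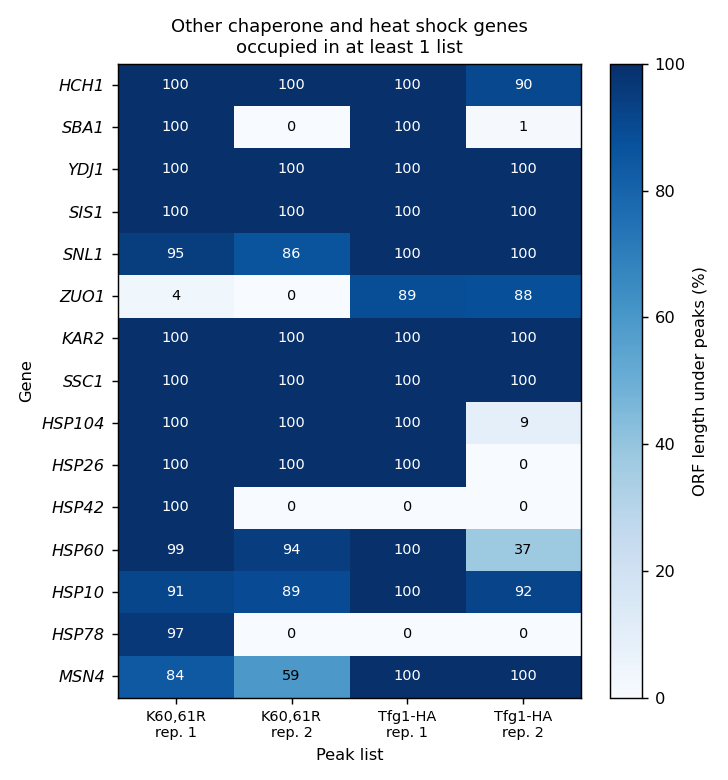
Colour and numbers give the percent of ORF length under peaks for the 15 genes of the wider chaperone list occupied in at least 1 list (rows), in each list (columns, the 2 Tfg1-K60,61R-HA lists left of the 2 Tfg1-HA lists). HSP104, HSP26 and HSP60 are low only in Tfg1-HA replicate 2, and ZUO1 is low in both Tfg1-K60,61R-HA lists.

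For the 5 genes occupied in all 4 lists, the ORF with the most similar percentiles over the 4 lists was TLD1 for SSA1, at a mean absolute difference of 3.16 points, YDL124W for SSA2 at 4.56, SLN1 for SSB1 at 1.203, TIM10 for SSB2 at 1.77 and THI7 for HSC82 at 3.31. Each likeness rests on 4 values.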

How the data were processed

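RNAPII ChIP-seq lists of 2 Tfg1-K60,61R-HA and 2 Tfg1-HA libraries were analysed. The 4 input libraries have no list of their own here. Per the labels and methods, the authors trimmed paired-end reads, aligned them with Bowtie2 2.3.5.1 to sacCer3 and called broad regions against input with MACS2 2.2.7.1 at a q-value limit of 0.1, in each library separately. The deposited fold ratio is the enrichment over background averaged over a region. Significance was deposited as −log10 of a p-value and of a q-value for each region, and a deposited score restates that q-value. No read counts are given, so depth is unknown and the study's differential test, which needs reads, was not run.

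From the 1992 rows given for Tfg1-K60,61R-HA replicate 1, 894 copies of the replicate 2 list were removed. Coordinates were read against R64, the same build as sacCer3, and 0 peaks passed a chromosome end. ORFs ran from first to last coding base. Coverage is the percent of ORF length under peaks. The ORF fold is the overlap-weighted mean of the authors' fold, ranked within a list among ORFs touched by at least 1 bp. Edges are distances along transcription. Paralogs were aligned globally with Biopython 1.88, and computations used Python 3.11.15 and numpy 2.4.6. Scripts were tested on simulated data. Sequences come from the RefSeq R64 genome, and only the 300 bases before each ORF were searched for motifs.

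Genes, lists and grouping by heat response were chosen with earlier results of these data known. All 10 genes are described. Of the wider list, those named are the genes occupied in some lists and the 2 of highest mean percentile in each sub-list among those occupied in all 4, together with ORFs under the same peak and the ORF most like each gene. SNL1, which falls outside that rule, was named after its values were seen. Alternatives were peaks of fold 2 or more, an equal 894 peaks per list, the repeated rows kept, other percentile bases, each list left out, grouping by name case, SSA1 as heat-induced, other window lengths and replicate number as a block.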

Additional observations from a re-analysis of the deposited data

How the results depend on the processing

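These results are limited by 2 lists a strain, unknown depth, neighbours under 1 peak and near-identical paralogs. The gap in coverage between heat-induced and constitutive genes kept its direction under every alternative run and moved most, to -48.7 points, with SSA1 as heat-induced, which turned the percentile gap of -14.6, resting on HSP82 alone, to 4.97. No percentile gap could be given for peaks of fold 2 or more, which touch no heat-induced gene.

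Strain differences, Tfg1-K60,61R-HA minus Tfg1-HA, were not stable. With a fold of at least 2, the number of genes occupied turned from 0.5 to -1, coverage from 4.03 to -10 points and the mean 5′ edge from 17.7 to -5.25 bp, the mean percentile was 21.96 over 2 genes, and the 4 genes that ranked higher in both lists of Tfg1-K60,61R-HA became 1 and the 3 that ranked lower became 0. Grouped by name case (lower minus upper), occupied genes differed by -0.5, coverage by -3.65 and percentile by -1.04 points, 0 genes were higher and 0 lower in both lists of a group, and single genes turned: SSA1 to -5.45, SSE1 to 5.86 and HSP82 to -6.01 percentile points, with SSA2 at 1.37, HSC82 at 0.537, SSB1 at -1.48 and SSB2 at -2.13, and SSE1 to 12.5 and HSP82 to -49.1 points of coverage, while the 5′ edge differed by 28.1 bp. With equal peak numbers occupied genes differed by 0.5, coverage by 3.55 points and the 5′ edge by 17.7 bp, 4 genes were higher and 1 lower, and the mean percentile difference was 13.0 over 6 genes, without SSE1. Ranked among peaks it was -0.565, and among ORFs touched in all 4 lists, chosen after seeing the data, 10.98. The cause was not tested.

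Leaving out 1 list at a time gave 0 to 1 for occupied genes, -0.122 (without Tfg1-HA replicate 2) to 8.18 for coverage, -0.126 (without Tfg1-K60,61R-HA replicate 1) to 4.69 for percentile and -6.9 (without Tfg1-HA replicate 1) to 33.3 bp for the 5′ edge. Without 1 list the class gaps ran from -70.2 to -60.8 points of coverage and -20.4 to -10.8 percentile points. With replicate number as a block the strain differences were again 0.5, 4.03, 2.28 and 17.7. With 1 list of each strain per number they could not come out otherwise, so this shows nothing about stability. Deviations of same-numbered lists correlated at 0.251 in percentile and 0.123 in coverage, and nothing in the labels says that a number marks a shared day. The share of copied windows, pooled over the 10 genes, was 13.4% at 120 bases, 20.6% at 50 and 7.05% at 250. Of 249 alternative values, 200 were classed as the same, 33 as moved and 16 as reversed. The 200 do not measure stability. They include coverage differences of 0 for genes equally covered in every list, and the replicate blocks, which could hardly change. Some counts of genes also had no spread to be set against.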
